A study of Mus musculus with 14 samples.

Results

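The expression of 10 chemokine system genes was followed in liver sinusoidal endothelial cells (LSECs) of the mouse: the ligands Cxcl1, Cxcl2, Cxcl9, Cxcl10, Cxcl12, Cxcl13, Cxcl14 and Cxcl16, the CX3C ligand Cx3cl1, and the atypical receptor Ackr3. They were chosen by symbol, through the Ensembl identifiers of the count table and the GENCODE vM21 annotation, and make up 10 of 54524 rows. All 10 passed the filter on low counts, along with the other genes of the 26626 tested. RNA sequencing had been performed on LSECs sorted from male Balb/c mice. The groups were healthy mice (n = 4) and mice 1 day (n = 2), 3 days (n = 4) and 7 days (n = 4) after a single intraperitoneal injection of carbon tetrachloride (CCl4, a solvent that kills hepatocytes around the central vein) at 0.5 µl per gram of body weight in mineral oil. The healthy mice were untreated and received no oil, so that the toxin, its carrier and the injection cannot be told apart in a comparison with them. Ages were 10 to 12 weeks by the labels, while the study's methods give a slightly older range. Cells were sorted without culture as CD32+, F4/80-, UV- and propidium iodide-negative. The methods add a negative gate for CD45, the marker of blood cells, that the labels do not list. The day 1 group held 2 samples, since the paper left out other samples of that time for low RNA quality.

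Chemokines are small secreted or membrane-bound proteins that bind to heparan sulfate on endothelium and guide leukocytes along a gradient. LSECs line the sinusoids, where most leukocytes of the liver enter the tissue, and can both make chemokines and take them up. Cxcl1 and Cxcl2 act on Cxcr2 of neutrophils, Cxcl9 and Cxcl10 are induced by interferon and act on Cxcr3 of activated T and NK cells, and Cxcl12 acts on Cxcr4, while Ackr3 removes Cxcl12 from the surroundings without G protein signalling.

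By the annotation (GRCm38), 5 of the 10 genes lie on chromosome 5. Cxcl1 (90891241 to 90893115, plus strand) is followed by Cxcl2 (90903871 to 90905938, plus strand) with 10755 bases between them. Cxcl9 (92321347 to 92328079, minus strand) and Cxcl10 (92346638 to 92348889, minus strand) are separated by 18558 bases. Cxcl13 spans 95956951 to 95961068 on the plus strand. The others are Cxcl12 on chromosome 6 (117168535 to 117181367, plus), Cxcl14 on chromosome 13 (56288643 to 56296551, minus), Cxcl16 on chromosome 11 (70453983 to 70459984, minus), Ackr3 on chromosome 1 (90203980 to 90216751, plus) and Cx3cl1 on chromosome 8 (94772009 to 94782427, plus). Exons of Cxcl10 overlap Art3 and exons of Cxcl16 overlap Zmynd15, both on the opposite strand. The use of strand in counting is not stated, so the counts of these 2 genes are uncertain, as are those of the closely related Cxcl1 and Cxcl2 where a read fits both.

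RefSeq promoter windows (GRCm38.p6, 250 bases before to 50 after the transcription start) matched 9 of the 10 genes, all except Cxcl16. The windows of the neighbouring pairs, whose ratios are compared below, are shown from base -230 to base -31 before the start. They read 5′ to 3′ on the strand of the gene. Capitals mark matches to the NF-kB consensus, the binding motif of the main inflammatory transcription factor, and to the core of the interferon-stimulated response element (ISRE), read here as GAAA, any 2 bases and GAAA again. Both strands were searched, and overlapping matches are printed as 1 run.
Cxcl1 (chr5:90891015-90891214, plus): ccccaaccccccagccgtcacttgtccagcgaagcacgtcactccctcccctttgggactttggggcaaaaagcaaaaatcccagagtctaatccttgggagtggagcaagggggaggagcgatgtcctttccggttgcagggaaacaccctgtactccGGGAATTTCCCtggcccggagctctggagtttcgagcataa
Cxcl2 (chr5:90903669-90903868, plus): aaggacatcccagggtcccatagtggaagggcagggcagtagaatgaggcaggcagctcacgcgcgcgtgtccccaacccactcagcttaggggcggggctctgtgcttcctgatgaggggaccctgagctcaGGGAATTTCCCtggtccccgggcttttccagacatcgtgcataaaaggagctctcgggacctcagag
Cxcl9 (chr5:92328110-92328309, minus): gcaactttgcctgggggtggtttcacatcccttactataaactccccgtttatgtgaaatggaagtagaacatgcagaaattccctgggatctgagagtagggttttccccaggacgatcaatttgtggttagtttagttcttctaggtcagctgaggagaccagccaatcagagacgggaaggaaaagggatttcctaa
Cxcl10 (chr5:92348920-92349119, minus): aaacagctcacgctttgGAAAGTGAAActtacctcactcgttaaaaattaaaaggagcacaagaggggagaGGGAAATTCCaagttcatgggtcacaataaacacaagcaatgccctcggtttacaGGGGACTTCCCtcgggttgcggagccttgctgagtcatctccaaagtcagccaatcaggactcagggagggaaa
Cxcl1 and Cxcl2 held the same NF-kB match, starting at base -71 and base -97. Cxcl10 held NF-kB matches from -159 and from -104 and an ISRE core from -213, and the Cxcl9 window held neither motif. Among 32817 mouse promoter windows of the same length, 8.46% held the NF-kB consensus and 3.43% the ISRE core. The STAT motif GAS (TTC and GAA with any 3 bases between them, 8.29% of all windows) was searched as well and was found, with an ISRE core, in the Cxcl14 window only. A match describes letters in the window, and binding was not measured.

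Total counts were 46401496 to 103912264 per sample. All 11 LSEC marker genes had counts in every sample, and their summed level was 16698 to 20645 CPM (counts scaled to library size by TMM) in healthy and 9899 to 15418 CPM in injured samples. Markers of other cells differed between groups and within them. The sum of 9 neutrophil markers was 20.6 to 144 CPM in healthy samples, 6793 and 2692 CPM at day 1, 3295, 1948, 57.4 and 17.8 CPM in replicates 1 to 4 of day 3, and 121 to 191 CPM at day 7. In day 3, the neutrophil genes Ly6g, Retnlg, Camp and Elane had no count in at least 1 library. The sum of 11 stellate cell markers was 152 to 283 CPM in healthy samples, 107 to 126 CPM at day 1, 687 to 2028 CPM at day 3 and 393 to 5860 CPM at day 7, and that of 8 monocyte and macrophage markers was 520.1 to 1562, 2115 to 2525, 1788 to 11098 and 4507 to 10210.1 CPM. In a sorted population, fewer cells of a type and less RNA per cell cannot be told apart.

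Against healthy LSECs, 4 of the 10 genes changed at day 1, 6 at day 3 and 2 at day 7 (edgeR quasi-likelihood test, adjusted p under 0.05). Cxcl14 rose at every time, Cxcl2 and Ackr3 rose at days 1 and 3, Cxcl1 and Cx3cl1 rose at day 3, Cxcl12 rose at day 7, and Cxcl16 fell at days 1 and 3. Cxcl9, Cxcl10 and Cxcl13 passed the test in none of these comparisons, and of their 9 differences only those of Cxcl9 and Cxcl10 at day 1 had an unadjusted p under 0.05 (0.0307 and 0.00713). Of all 26626 genes, 4.06% were called at day 1, 7.19% at day 3 and 3.18% at day 7. The median log2 fold change of the 10 genes was 0.62, 2.05 and 0.70, beside medians over all tested genes of -0.03, 0.18 and 0.02. The 3 comparisons share the same 4 healthy samples and are therefore not independent. From day 1 to day 3 only Cxcl16 was called (2.54% of all genes), and from day 3 to day 7 only Cxcl1 (1.77%). The split of all called genes depended on scaling, with 1229 higher and 686 lower at day 3 and 582 higher and 264 lower at day 7, but 1207 and 401, and 619 and 94, when scaled by library size only.

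**Figure D1:**
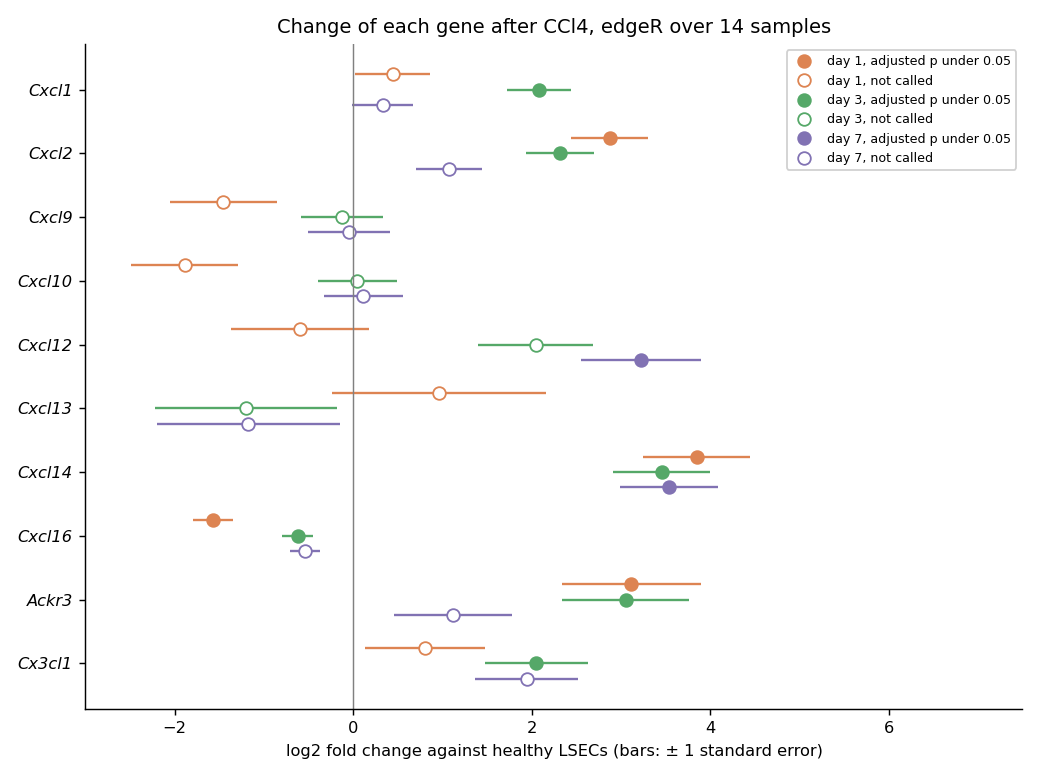
Log2 fold change against healthy LSECs (x axis, bars ± 1 standard error) of each of the 10 genes (y axis) at day 1, day 3 and day 7 after CCl4, with filled points where the adjusted p was under 0.05. Cxcl14 lies at 3.85, 3.46 and 3.54 and is filled at all 3 times, while Cxcl9 and Cxcl10 lie left of 0 at day 1 with open points and near 0 afterwards.

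To compare levels between genes, CPM were divided by exon length in kilobases (FPKM). In healthy LSECs the interferon-inducible Cxcl10 led with 469.8 ± 202 FPKM (SD, n = 4), which was 51.8% of the summed level of the 10 genes. Its lowest sample (299.7 FPKM) was above the highest of Cxcl1 (183 FPKM). Cxcl1 (155 ± 30.1), Cxcl16 (107 ± 4.85), Cxcl9 (87.4 ± 39.6) and Cxcl2 (75.9 ± 31.6 FPKM) followed, and the samples of each neighbouring pair in this order overlapped. A gap separated them from Cxcl13 (6.65 ± 1.53), Ackr3 (3.54 ± 0.333), Cxcl12 (1.26 ± 0.896), Cxcl14 (0.731 ± 0.431) and Cx3cl1 (0.141 ± 0.0708 FPKM). Among these low genes the samples of Cxcl12 and Cxcl14 overlapped and those of the other neighbours did not.

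The order of levels differed after injury. At day 1 Cxcl2 led with 557 ± 309 FPKM (SD, n = 2) and 54.8% of the sum, both samples being above both samples of Cxcl1 (210.0 ± 41.2 FPKM), and Cxcl10 (127 ± 40.4 FPKM) came next with 12.5%. At day 3 Cxcl1 (657 ± 356), Cxcl10 (485 ± 185) and Cxcl2 (379 ± 150.1 FPKM, n = 4 each) had the highest means, with overlapping samples, so that no order among them can be read. At day 7 Cxcl10 again had the highest mean (508 ± 254 FPKM) and 48.3% of the sum, but Cxcl1 was higher than Cxcl10 in 1 of 4 samples. Cx3cl1 was lowest in mean FPKM in every group. The summed mean level was 907 FPKM in healthy cells and 1018, 1717 and 1051 FPKM at days 1, 3 and 7.

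**Figure D2:**
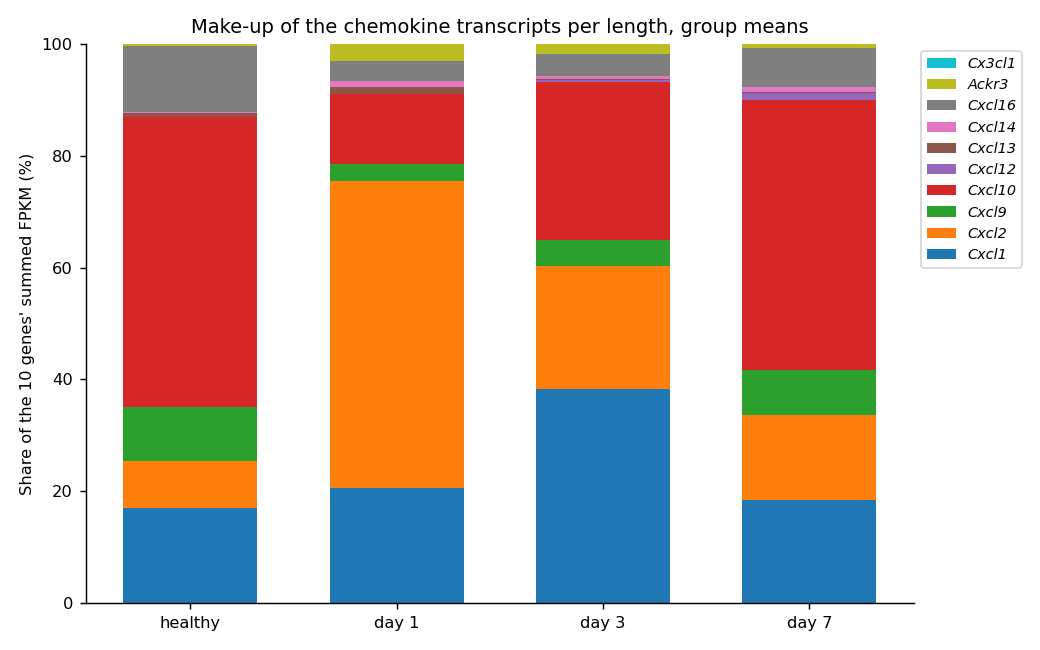
Share of each gene (y axis, %) in the summed mean FPKM of the 10 genes, for healthy LSECs and day 1, 3 and 7 after CCl4 (x axis). Cxcl10 takes 51.8% in healthy cells and 48.3% at day 7, while Cxcl2 takes 54.8% at day 1 and Cxcl1 takes 38.3% at day 3.

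The neutrophil attractants Cxcl1 and Cxcl2 are taken in turn, followed by the ratio between them. Cxcl2 stood at 78.1, 238, 159 and 153 CPM in healthy replicates 1 to 4 and at 1604 and 701 CPM at day 1. It stood at 1214, 789, 636 and 498 CPM at day 3 and at 229, 411, 349.6 and 329.8 CPM at day 7. All samples of days 1 and 3 lay above all healthy samples, as was the case for 20.0% and 7.53% of all tested genes, while day 7 overlapped with healthy. The log2 fold change was 2.88 ± 0.43 (SE, adjusted p = 0.0022) at day 1 and 2.32 ± 0.38 (adjusted p = 0.00433) at day 3, a 7.34-fold and a 5.0-fold higher level. At day 7 it was 1.07 ± 0.37 (adjusted p = 0.122) and was not called. The day 7 samples all lay below those of day 3, as for 4.15% of all tested genes. The log2 difference of -1.25 ± 0.37 was not called either (adjusted p = 0.112).

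Cxcl1 stood at 344, 306, 211 and 299.8 CPM in healthy replicates and at 448 and 339 CPM at day 1. At day 3 it stood at 1762, 1842, 784 and 539 CPM, and at day 7 at 298, 347, 319.9 and 494 CPM. Day 3 lay above every other group, as did 11.4% of all genes against day 1 and 4.15% against day 7, and replicates 1 and 2 were higher than replicates 3 and 4. The rise at day 3 was 2.09 ± 0.36 (SE, log2, adjusted p = 0.00546), or 4.24-fold. At day 1 the log2 difference was 0.44, with a 95% interval of -0.45 to 1.34 (adjusted p = 0.672). From day 1 to day 3 the difference was 1.64 ± 0.46 (adjusted p = 0.0803). From day 3 to day 7 Cxcl1 fell by 1.76 ± 0.36 on the log2 scale (adjusted p = 0.0289). Without day 3 replicate 1 or 2, or without any 1 of the day 7 samples, that fall was no longer called, with adjusted p of up to 0.137.

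The count ratio of Cxcl2 to Cxcl1, which does not depend on sequencing depth, lay between 0.227 and 0.777 in healthy samples. It was 3.58 and 2.07 in the day 1 samples, between 0.429 and 0.924 in those of day 3, and between 0.667 and 1.19 in those of day 7. The log2 ratio was higher by 2.41 at day 1 than in healthy cells, and the samples did not overlap. The exact two-sided permutation p was 0.133 (adjusted p = 0.286 over 6 ratio tests), and 0.133 is the smallest that 2 samples against 4 can give. Day 3 and day 7 differed from healthy by 0.43 and 0.82 in the log2 ratio (exact p = 0.486 and 0.143).

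Within day 3, replicates 1 and 2 had the higher values of Cxcl1, Cxcl2, neutrophil markers and monocyte and macrophage markers (summed 11098 and 6952 CPM). Replicates 3 and 4 had neutrophil sums of 57.4 and 17.8 CPM, within or below the healthy range, and monocyte and macrophage sums of 1829 and 1788 CPM, above the highest healthy sum of 1562 CPM. All 8 monocyte and macrophage markers had a higher mean at day 3 than in healthy cells, and 6 were called higher. The part of these cells in the result was not tested. With replicates 3 and 4 as the only day 3 samples, a comparison added after the values were seen, Cxcl1 rose by 1.16 ± 0.25 (SE, log2, adjusted p = 0.0188) and Cxcl2 by 1.82 ± 0.41 (adjusted p = 0.021). These p-values take no account of that choice of samples, and the comparison does not test the part of neutrophil RNA. Within the day 1 group, replicate 1 had the higher neutrophil sum and the higher Cxcl2. Without it, Cxcl2 at day 1 gave a log2 difference of 2.12 with adjusted p = 0.0745 from a single day 1 sample, whose variance was taken to be like that of the other groups.

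**Figure D3:**
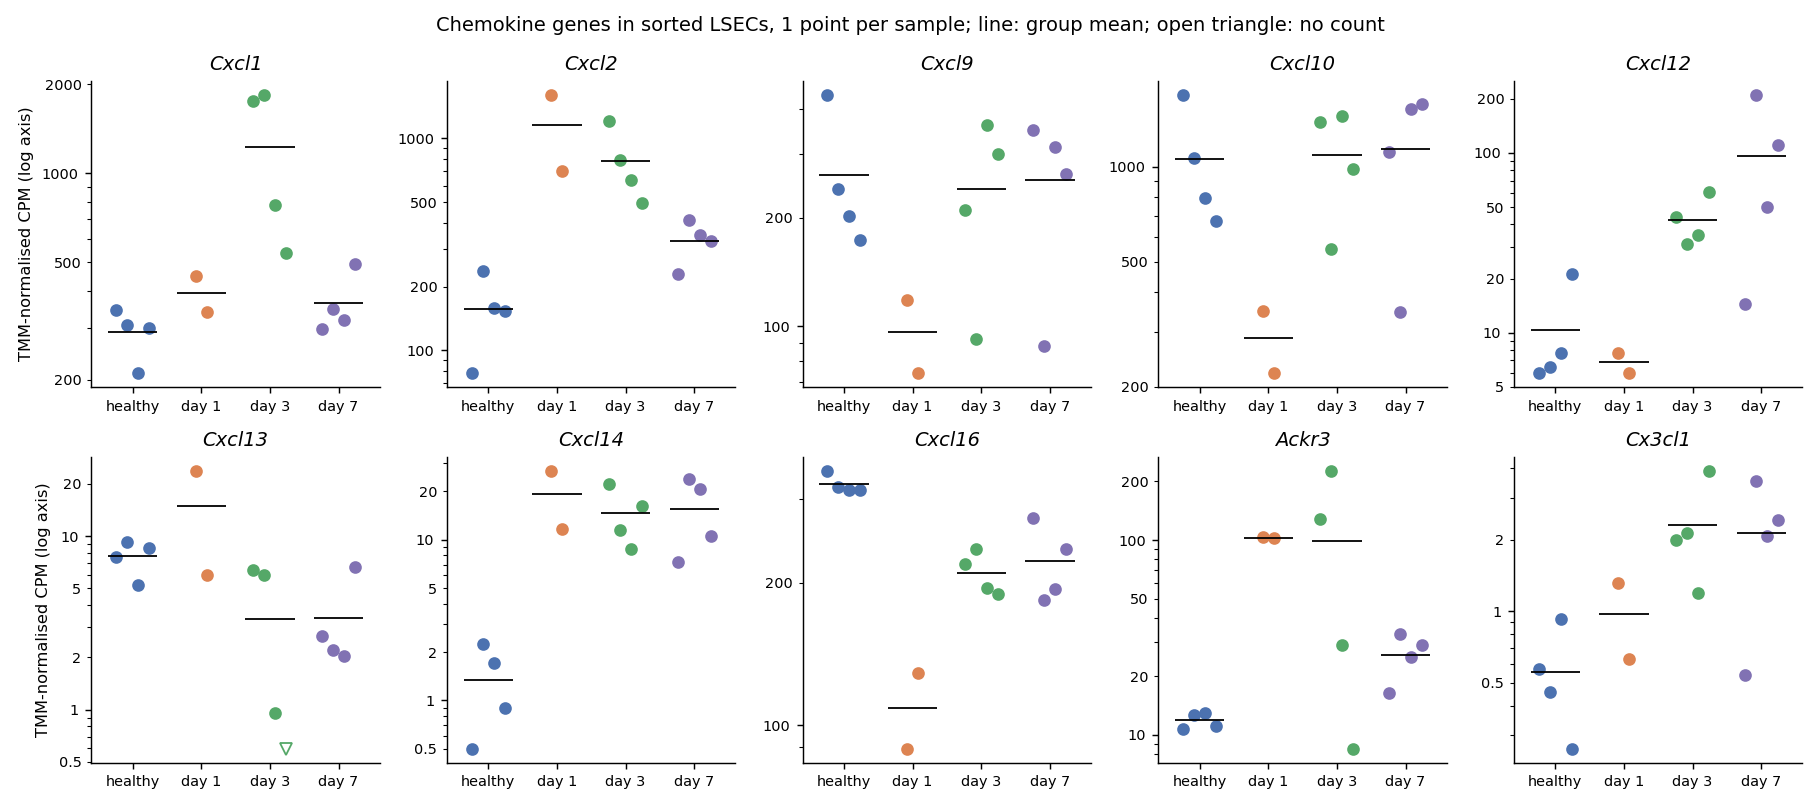
TMM-normalised CPM (log axis, its range differs between panels) of each gene in every sample by group, with the group mean as a line. Cxcl2 and Cxcl14 of days 1 and 3 lie above all healthy samples, and the open triangle marks Cxcl13 in day 3 replicate 4, which had no count.

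The Cxcr3 ligands Cxcl9 and Cxcl10 had their lowest mean at day 1. Cxcl10 stood at 1693, 1066, 798 and 675 CPM in healthy replicates and at 349.8 and 221 CPM at day 1. It stood at 1386, 548, 1450.1 and 986 CPM at day 3 and at 1117, 347, 1528 and 1586 CPM at day 7. Both day 1 samples were below all healthy ones, as for 17.9% of all tested genes, whereas days 3 and 7 overlapped with healthy. The log2 difference at day 1 was -1.89 ± 0.60 (SE), with a 95% interval of -3.17 to -0.61, and was not called by edgeR (adjusted p = 0.101). It was called in 3 of 8 alternative fits, by DESeq2 (adjusted p = 0.00825), limma voom (0.0224) and edgeR on both groups alone (0.0374). These called 10.7%, 16.2% and 10.2% of all genes, against 4.06% in the main test. The highest adjusted p among the 8 was 0.1345. From day 1 to day 3 the difference was 1.94 ± 0.60 (adjusted p = 0.118), again without overlap (11.4% of all tested genes).

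Cxcl9 stood at 438, 239.9, 202 and 174 CPM in healthy replicates and at 118 and 74.0 CPM at day 1. It stood at 209.9, 91.9, 361 and 301 CPM at day 3 and at 351, 88.0, 314 and 264 CPM at day 7. Day 1 again lay below healthy without overlap (17.9% of all tested genes), but the log2 difference of -1.45 ± 0.60 (SE) was not called (adjusted p = 0.219). At days 3 and 7 the differences of Cxcl9 were -0.13 and -0.05, and those of Cxcl10 were 0.05 and 0.11 (adjusted p of 0.904 to 0.969), with 95% intervals within -1.12 to 1.07. The same samples were low in both genes, namely day 3 replicate 2 and day 7 replicate 2.

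The count ratio of Cxcl10 to Cxcl9 was 3.87 to 4.44 in healthy samples and 2.96 and 2.99 at day 1, and it ranged from 3.28 to 6.61 at day 3 and from 3.18 to 6.0 at day 7. At day 1 the log2 ratio was 0.44 below healthy without overlap (log2 difference -0.44, exact permutation p = 0.133, again the smallest possible). The ratios of days 3 and 7 spread wider than the healthy ones, with an SD of the log2 ratio of 0.476 and 0.393 against 0.0949.

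Cxcl12, which holds Cxcr4-bearing cells in place and is made by stromal cells in many organs, was low in healthy and day 1 cells and higher later. It stood at 5.95, 6.43, 7.70 and 21.3 CPM in healthy replicates and at 7.69 and 5.98 CPM at day 1. It stood at 43.9, 31.2, 34.8 and 60.6 CPM at day 3 and at 14.4, 210.4, 49.9 and 111 CPM at day 7. All day 3 samples lay above all healthy samples (7.53% of all tested genes), and day 7 replicate 1 lay below healthy replicate 4. Cxcl12 rose at day 7 by 3.22 ± 0.67 (SE, log2, adjusted p = 0.0232), or 9.33-fold. The day 3 difference of 2.04 ± 0.64 was not called by edgeR (adjusted p = 0.0729). It was called in 2 of 8 alternative fits, by DESeq2 (0.0108) and limma voom (0.0208), which called 14.2% and 27.3% of all genes.

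Stellate cell marker RNA moved with Cxcl12 across samples, and its part in the result was not tested. The sort had a gate on UV autofluorescence, which stellate cells show, that was meant to remove these cells. The highest Cxcl12 values of day 7, 210.4 CPM in replicate 2 and 111 CPM in replicate 4, came with the highest sums of stellate markers at that time, 5860 and 2409 CPM, and the lowest value, 14.4 CPM, with the lowest sum, 393 CPM. All 11 stellate markers had a higher mean than in healthy cells at day 3 and at day 7, and 8 and 9 of them were called higher. With day 7 replicates 1 and 3 only, a comparison added after the values were seen, the log2 difference of Cxcl12 was 1.6 ± 0.57 (adjusted p = 0.376). These replicates held the lower Cxcl12 values of day 7, so a smaller difference followed from the choice of samples. In that comparison 53 of 26242 genes were called in all. Leaving out healthy replicate 1, 2 or 3, or day 7 replicate 2 or 4, also ended the call, with adjusted p between 0.0547 and 0.0817.

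**Figure D4:**
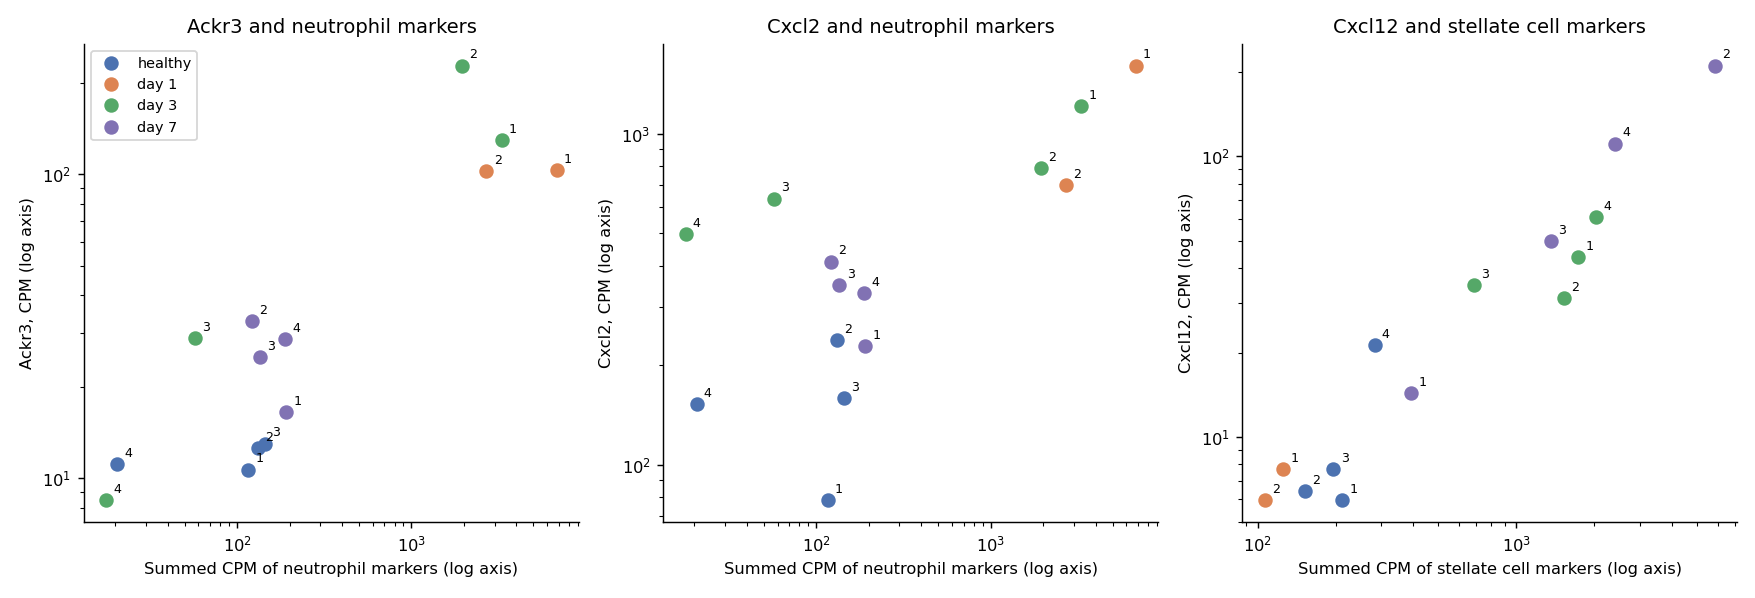
CPM of Ackr3 and of Cxcl2 against the summed CPM of 9 neutrophil markers, and CPM of Cxcl12 against the summed CPM of 11 stellate cell markers, 1 point per sample with its replicate number, all axes logarithmic. Ackr3 is above 100 CPM in the 4 libraries with neutrophil sums of 1948 to 6793 CPM, Cxcl2 is at 636 and 498 CPM in day 3 replicates 3 and 4 with sums of 57.4 and 17.8 CPM, and Cxcl12 is highest where the stellate sum is highest.

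Ackr3, the atypical receptor that takes up Cxcl12, stood at 10.7, 12.6, 13.0 and 11.2 CPM in healthy replicates and at 103 and 102 CPM at day 1. It stood at 129, 227, 28.9 and 8.47 CPM at day 3 and at 16.5, 32.8, 25.1 and 28.8 CPM at day 7. Day 1 and day 7 were above healthy without overlap (20.0% and 8.72% of all tested genes), but day 3 was split, with replicate 4 below all healthy samples. Ackr3 rose by 3.12 ± 0.78 (SE, log2, adjusted p = 0.0399) at day 1 and by 3.05 ± 0.71 (adjusted p = 0.0209) at day 3. The day 7 difference from healthy was 1.12 ± 0.66 (adjusted p = 0.349), and that of day 7 from day 3 was -1.93 ± 0.68 (adjusted p = 0.172). The day 1 call was lost when any 1 sample of day 1 or healthy was left out (adjusted p of 0.0796 to 0.246), although the log2 difference stayed between 3.06 and 3.16. The day 3 call was lost without any 1 of the 4 healthy samples or without day 3 replicate 2, with adjusted p of up to 0.0658, and with both groups alone (0.0811). Without replicate 2 the day 3 difference was 2.25.

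The 4 libraries with Ackr3 above 100 CPM were the same 4 that had neutrophil sums of 1948 CPM or more, and the part of neutrophil RNA in the result was not tested. With day 3 replicates 3 and 4 as the only day 3 samples, the log2 difference from healthy was 0.63 ± 0.38 (SE, adjusted p = 0.312). This comparison was added after the values were seen, and these replicates held the lower Ackr3 values of day 3. A day 3 level below that of day 1 (log2 difference -2.46 ± 0.47) therefore followed from the choice of samples. With all day 3 samples the difference from day 1 was -0.06 ± 0.80 (adjusted p = 0.98).

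Cxcl14, a chemokine of epithelia and stroma whose receptor is debated, was near 1 CPM in healthy cells and rose at all times. It stood at 0.499, 2.24, 1.71 and 0.893 CPM in healthy replicates and at 26.9 and 11.6 CPM at day 1. It stood at 22.3, 11.4, 8.75 and 16.2 CPM at day 3 and at 7.29, 23.8, 20.7 and 10.5 CPM at day 7. Every injured sample lay above every healthy one, the closest being 7.29 against 2.24 CPM. Such a separation was shown by 20.0%, 7.53% and 8.72% of all tested genes at days 1, 3 and 7. The log2 fold changes were 3.85 ± 0.60 (SE, adjusted p = 0.00293), 3.46 ± 0.55 (0.00353) and 3.54 ± 0.55 (0.00698), or 14.4-fold, 11-fold and 11.7-fold. The levels of days 3 and 1 differed by -0.39 (95% interval -1.68 to 0.89) and those of days 7 and 3 by 0.09 (-0.98 to 1.15). The calls of days 3 and 7 held when any 1 sample was left out, and that of day 1 was lost without day 1 replicate 1 (3.09, adjusted p = 0.0695). The summed level of 5 cholangiocyte markers, the epithelium of bile ducts, was 79.2 to 193 CPM in healthy samples, 229 to 301 CPM at day 1, 321 to 1178 CPM at day 3 and 598 to 5255 CPM at day 7. Of these markers 2, 3 and 4 had a higher mean than in healthy cells at the 3 times, and 0, 1 and 1 were called higher, while Krt19 and Epcam had no count in a day 3 library. The stellate marker sum lay below all healthy samples at day 1, at 107 to 126 CPM against 152 to 283 CPM. The monocyte and macrophage sum was above healthy in every injured sample, at least 1788 CPM against at most 1562 CPM. Of its 8 genes, 1, 6 and 2 were called higher at days 1, 3 and 7. The part of the cholangiocyte, stellate, and monocyte and macrophage markers in the result was not tested.

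Cxcl13, the B cell attractant that acts on Cxcr5, was called in no comparison. It stood at 7.53, 9.30, 5.25 and 8.52 CPM in healthy replicates and at 23.9 and 6.0 CPM at day 1. It stood at 6.40, 5.99 and 0.950 CPM in day 3 replicates 1 to 3, had no count in replicate 4, and stood at 2.67, 2.20, 2.05 and 6.62 CPM at day 7. A count of 0 in that library allows up to 3 counts, or 0.0319 CPM, which covers counting error only. The log2 differences from healthy were 0.96 ± 1.20, -1.20 ± 1.02 and -1.17 ± 1.02 (SE, adjusted p = 0.771, 0.543 and 0.542). The 2 day 3 samples with low Cxcl13 had the low neutrophil sums, 57.4 and 17.8 CPM. They also had lower monocyte, Kupffer, and T and NK marker sums than replicates 1 and 2. Fewer genes were detected in them, 28203 and 22986 against 34678 and 34768. Healthy samples had neutrophil sums of 20.6 to 144 CPM with Cxcl13 at 5.25 to 9.30 CPM. The part of other cells or of the library in the result was not tested.

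Cxcl16 and Cx3cl1 are made as transmembrane proteins that can hold cells on the endothelium and can be shed. Cxcl16, which binds Cxcr6 of NKT and resident T cells, stood at 344, 319, 314 and 314 CPM in healthy replicates and at 89.1 and 129 CPM at day 1. It stood at 219, 236, 194 and 189 CPM at day 3 and at 274, 184, 193 and 235 CPM at day 7. No injured sample reached the healthy range, a pattern that 17.9%, 6.84% and 12.1% of all tested genes showed at days 1, 3 and 7, and day 1 lay below all other groups. Cxcl16 fell by 1.57 ± 0.23 (SE, log2, adjusted p = 0.00172) at day 1 and by 0.62 ± 0.17 (adjusted p = 0.0434) at day 3. The day 7 difference of -0.54 ± 0.17 was not called (adjusted p = 0.0958), and from day 1 to day 3 Cxcl16 rose by 0.94 ± 0.22 (adjusted p = 0.0366).

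The fall of Cxcl16 at day 1 was lost without day 1 replicate 1 (-1.36, adjusted p = 0.0686). Its fall at day 3 was lost without day 3 replicate 2 or without healthy replicate 1, 2 or 3 (adjusted p of up to 0.111), and the rise from day 1 to day 3 without either day 1 sample or without day 3 replicate 1, 2 or 3 (adjusted p of up to 0.634). With day 3 replicates 3 and 4 only, Cxcl16 fell by 0.78 ± 0.20 from healthy on the log2 scale (adjusted p = 0.038). This comparison was added after the values were seen. These replicates held the lower Cxcl16 values of day 3, so a larger fall followed from the choice of samples, which the p-value does not take into account. The summed LSEC markers were lower in injured samples as well. Of these 11 genes, 2, 4 and 2 had a higher mean than in healthy cells at days 1, 3 and 7. Called higher were 2, 1 and 0 of them, and called lower 2, 2 and 0. The part of the LSEC markers in the result was not tested.

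Cx3cl1, the ligand of Cx3cr1 on monocytes, was the least abundant of the 10 per length. It stood at 0.569, 0.458, 0.926 and 0.263 CPM in healthy replicates and at 1.32 and 0.627 CPM at day 1. It stood at 2.00, 2.13, 1.19 and 3.91 CPM at day 3 and at 0.540, 3.52, 2.07 and 2.43 CPM at day 7. Day 3 lay above healthy without overlap (7.53% of all tested genes), and at day 7 replicate 1 stayed in the healthy range. Cx3cl1 rose by 2.05 ± 0.58 (SE, log2, adjusted p = 0.0482) at day 3, a call that was lost when any 1 of the 8 samples was left out (adjusted p of 0.0503 to 0.131). The day 7 difference was 1.95 ± 0.58 (adjusted p = 0.0812). At day 3 the lowest and highest Cx3cl1 values came with the lowest and highest stellate marker sums, 687 and 2028 CPM. The same held at day 7, with sums of 393 and 5860 CPM. Among healthy samples the lowest value came with the highest stellate sum, 283 CPM. The part of stellate marker RNA in the result was not tested.

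The other members of the chemokine system were counted from lists of ligands, receptors, scavengers and proteases. The counts of these and the later lists stand beside the following shares. Over all 26626 tested genes, 4759, 5906 and 5609 had an unadjusted p under 0.05 at days 1, 3 and 7. DESeq2 called 10.7%, 14.2% and 10.2% of all genes at these times, and limma voom 16.2%, 27.3% and 26.5%. Of 7 other CXC ligands 6 were tested (Cxcl15 was not), and 3 were called higher at day 1 and 2 at day 3. At day 7 edgeR called 0 of them, with 1 at an unadjusted p under 0.05, 1 called by DESeq2 and 0 by limma voom. Cxcl3, a further Cxcr2 ligand, rose by 6.78 ± 0.83 (SE, log2, adjusted p = 0.00059) at day 1, from a mean of 0.559 to 61.3 CPM, and by 4.19 ± 0.71 (adjusted p = 0.00516) at day 3. Its SD at day 1 was 51.3 CPM, and the libraries of that day had neutrophil sums of 6793 and 2692 CPM. The part of neutrophil RNA in the rise of Cxcl3 was not tested. The platelet chemokines Pf4 and Ppbp rose at day 1 by 2.59 and 4.66 (adjusted p = 0.00784 and 0.0405), and Pf4 rose at day 3 by 1.72 (0.0245) and fell from day 3 to day 7 by 2.35 (0.0172). That fall of Pf4 was called in 3 of 8 fits with a sample of these days left out. The call of Ppbp was lost when any 1 sample was left out (adjusted p of 0.0599 to 0.524), whereas both calls of Cxcl3 held.

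Of 7 CXC and CX3C receptors, all tested, only Cxcr2 at day 1 was called by edgeR (at days 3 and 7, 3 and 1 had an unadjusted p under 0.05, DESeq2 called 2 and 1, and limma voom 3 and 1), with a rise of 5.72 ± 1.34 (SE, log2, adjusted p = 0.0283) from a mean of 2.01 to 106 CPM. The call was lost when any 1 sample of healthy or day 1 was left out (adjusted p of 0.0599 to 0.23). Cxcr2 is a receptor of neutrophils, whose summed markers were high in the same libraries, and their part in the result was not tested. Cxcr4, the signalling receptor of Cxcl12, had means of 6.85 CPM in healthy cells and 21.5, 21.4 and 20.5 CPM at days 1, 3 and 7, without a call by edgeR (adjusted p = 0.154, 0.0766 and 0.11). DESeq2 called Cxcr4 higher at days 3 and 7 (0.0158 and 0.0252), and limma voom at all 3 times (0.027, 0.00623 and 0.0145). Cxcr6, the receptor of Cxcl16, had means of 15.1 CPM in healthy cells and 6.72, 5.0 and 4.57 CPM afterwards (adjusted p = 0.763, 0.445 and 0.398).

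Of 5 other atypical receptors, 2 were called lower at day 1 and 1 at day 3. Ackr4, which scavenges CC chemokines and Cxcl13, fell by 5.27 ± 0.45 (SE, log2, adjusted p = 4.45e-05) at day 1 and by 2.19 ± 0.28 (adjusted p = 0.00148) at day 3, from a healthy mean of 60.1 CPM to 1.55 and 13.2 CPM. It then rose from day 1 to day 3 by 3.09 ± 0.40 (adjusted p = 0.00274) and from day 3 to day 7 by 1.26 ± 0.28 (adjusted p = 0.0376). The rise from day 3 to day 7 was called in 2 of 8 fits with a sample of these days left out. It was called in 4 of 8 alternative fits. Ackr1, the erythrocyte and venule receptor that carries inflammatory chemokines, fell by 1.61 ± 0.37 (adjusted p = 0.0248) at day 1, a call kept in 1 of 6 fits with a sample left out. At day 7 edgeR called 0 of the 5, with 3 at an unadjusted p under 0.05, 1 called by DESeq2 and 4 by limma voom. Ackr3 was the only atypical receptor of those tested that edgeR called higher against healthy cells, in the libraries described above.

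Of 5 proteases that cut chemokines, Dpp4, which inactivates Cxcl9, Cxcl10 and Cxcl12, fell at every time by 1.77, 1.36 and 0.95 on the log2 scale (adjusted p = 0.00527, 0.00509 and 0.0406), and Mmp2, typical of stromal cells, rose at day 7 by 3.79 (0.0134), with no other call against healthy by edgeR. The day 7 call of Dpp4 was kept in 1 of 8 fits with a sample left out. DESeq2 and limma voom each called 2 of the 5 at day 1 and at day 3, adding Mmp9 higher at day 1 (adjusted p = 0.0188 and 0.00278) and Adam10, a sheddase of Cxcl16 and Cx3cl1, lower at day 3 (0.00566 and 0.00781). Mmp9 had means of 2.81 CPM in healthy cells and 78.5 CPM at day 1, where the neutrophil sums were high. The part of neutrophil RNA in that difference was not tested.

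**Figure D5:**
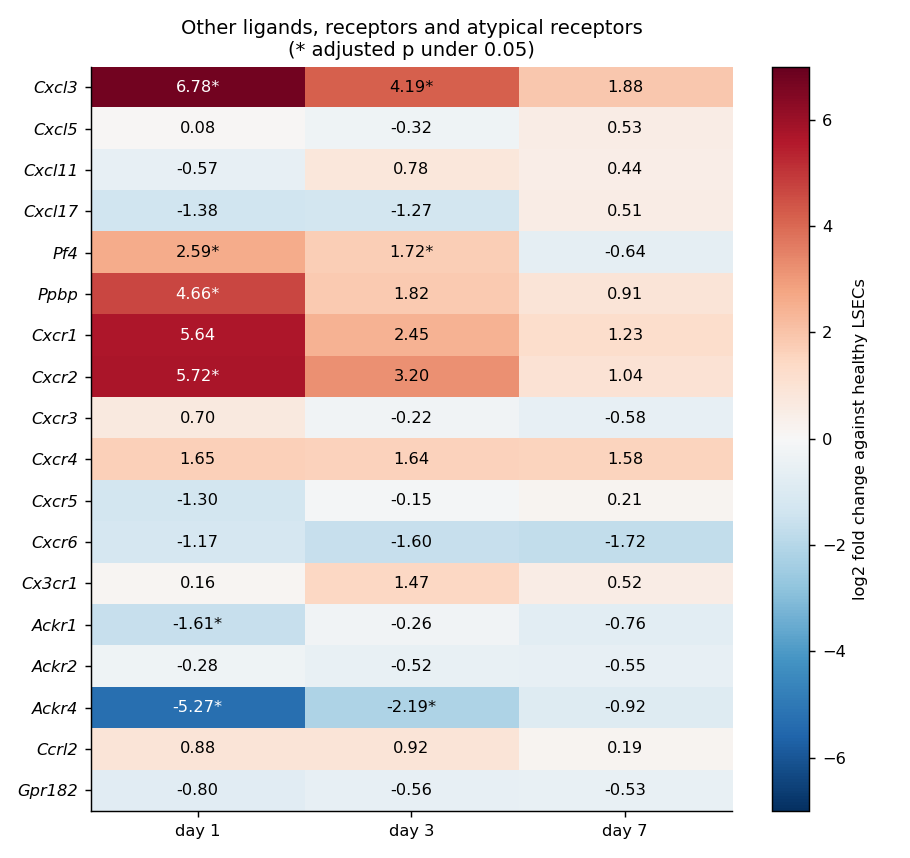
Log2 fold change against healthy LSECs (colour and number) of 18 other ligands, receptors and atypical receptors (y axis) at days 1, 3 and 7 (x axis), with an asterisk where the adjusted p was under 0.05. Cxcl3, Pf4, Ppbp and Cxcr2 carry the asterisks on the higher side, Ackr1 and Ackr4 those on the lower side, and no gene has one at day 7.

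Genes induced along with these chemokines in other settings were counted as well. Of all 23 edgeR calls against healthy in all these lists, 6 held with any 1 sample left out, namely those of Cxcl3 and Ackr4 at days 1 and 3 and of Dpp4 and Dusp1 at day 3. Of 8 NF-kB feedback genes edgeR called 0 at day 1 (1 at an unadjusted p under 0.05, 0 by DESeq2 and 1 by limma voom) and 0 at day 7 (0 by each of these). At day 3, 3 rose: Nfkbia, the inhibitor of NF-kB, by 1.42 ± 0.38 (SE, log2, adjusted p = 0.0374), Tnfaip3 by 0.90 (0.0381) and the adhesion molecule Icam1 by 1.18 (0.0191). The list median was -0.04, 0.70 and 0.14 at days 1, 3 and 7. Of 12 interferon gamma targets, 2 fell at day 1, the transcription factor Irf1 by 2.12 ± 0.42 (adjusted p = 0.0112) and the immunoproteasome subunit Psmb9 by 1.5 ± 0.34 (0.0223). The list median was -0.60 at day 1, -0.21 at day 3 and -0.11 at day 7. At the later times edgeR called 0, with 2 and 3 at an unadjusted p under 0.05, 1 and 2 called by DESeq2 and 1 and 4 by limma voom. Over all 26626 genes, 5906 and 5609 had such an unadjusted p at days 3 and 7. DESeq2 called 14.2% and 10.2% of all genes there, and limma voom 27.3% and 26.5%.

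Of 10 immediate early genes, which also respond to cell isolation, 1 fell at day 1 (Atf3 by 1.77, adjusted p = 0.0101), 3 fell at day 3 (Fos by 0.90, Dusp1 by 1.11 and Zfp36 by 0.99, adjusted p = 0.0164, 0.00391 and 0.0394) and 1 fell at day 7 (Dusp1 by 0.97, 0.0136). None was called higher, and the list medians of -0.70, -0.72 and -0.69 were on the lower side at all times. The mean level of Fos was 8610.0 CPM in healthy cells and 4603 CPM at day 3.

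The genes most alike in pattern were taken from 12939 protein-coding genes by Pearson's r of log2 CPM over the 14 samples, a description that includes the differences between groups and libraries. For Cxcl9 they were Iigp1 (r = 0.929), Cxcl10 (0.918) and Irgm1 (0.874), and Cxcl10 had Cxcl9 as its nearest gene. For Cxcl1 they were Tnfsf9 (0.942), Gadd45b (0.929) and Nfkbia (0.887), and for Cxcl2 they were Lilr4b (0.968), Lilrb4a (0.959) and Emilin2 (0.954). Cxcl12 was most like Ednra (0.983), Gdf10 (0.972) and Epha7 (0.969), and Ackr3 most like Rspo3 (0.968), Ifitm6 (0.954) and Vmp1 (0.950). Cxcl14 was most like Cd44 (0.975), Gcnt1 (0.964) and Basp1 (0.958), and Cxcl16 most like Dapk2 (0.951), Lrmda (0.942) and Eva1b (0.941). Cxcl13 was most like Padi4 (0.954), Rab4a (0.954) and Elovl7 (0.948), and Cx3cl1 most like Ptprs (0.933), Reck (0.929) and Vegfc (0.925). With the group means removed, the same 30 pairs had r between 0.709 and 0.966.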

How the data were processed

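RNA of FACS-sorted LSECs was amplified with a SMARTseq v4 kit and sequenced. After quality control with FastQC and AfterQC, the authors used STAR for mapping to GRCm38.p6 and StringTie for assembly (both tools are also in the submitters' processing notes). They deposited raw whole-number counts per Ensembl gene. The annotation release, the use of strand, the step to whole counts and the version of each tool are not given in the sources used here. The sequencing is described both as paired-end and as single-end.

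Counts of 14 samples in 4 groups, taken from the labels, were used as deposited. GENCODE vM21 gave names and positions for 54495 of 54524 rows. Genes were filtered with filterByExpr (minimum count 10, minimum total 15, 26626 genes left), scaled with TMM and tested with edgeR 4.0.16 (quasi-likelihood, R 4.3.3) on 4 group means, with Benjamini-Hochberg adjustment over all tested genes and a threshold of 0.05. Each standard error was obtained from the log2 fold change and its F statistic. CPM used TMM-scaled totals, log2 CPM a prior count of 2, and FPKM the union of exons. For ratios, exact permutation tests were used, two-sided. The genes named were the 10 members in full, the called genes of the fixed lists with the receptors of members, and for likeness the 3 highest correlations among genes with a mean CPM of at least 1. Members and lists were chosen with earlier results of these data known. The tests were checked on simulated counts. DESeq2 1.42.0 and limma 3.58.1 (voom, quality weights) served as alternatives, as did RLE factors, library size only, no filter or a filter of 1 CPM in 2 samples, only the 2 groups compared, a replicate block and leaving out each sample. The lowest chi-square per degree of freedom between samples of a group was 75.7, so none was a repeated library. Each sample is a separate library. The labels do not state whether it is 1 mouse or a pool, so p-values measure the spread between these samples.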

Additional observations from a re-analysis of the deposited data

Results flagged for a closer look

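Dixon's criterion was applied to each gene in the groups of 4 samples and marked 3 of 30 such groups, where chance marks about 1 in 20. Cxcl12 was at 21.3 CPM in healthy replicate 4, while the other 3 healthy samples were at 5.95 to 7.70 CPM. The same library had the highest sums of hepatocyte markers (7023 CPM, against 169 to 318 CPM) and of stellate cell markers (283 CPM) among healthy samples, and their part in the result was not tested. Cxcl13 was at 6.62 CPM in day 7 replicate 4, against 2.05 to 2.67 CPM in the others of that day. Cxcl16 was at 344.5 CPM in healthy replicate 1, against 314 to 319 CPM in the others.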

How the results depend on the processing

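All 14 member calls kept their direction in every alternative. The calls of Cxcl1, Cxcl2 and Cxcl14 at day 3 and of Cxcl14 at day 7 passed the threshold in all 8 alternatives and with any 1 sample left out. Depth was at least 46401496 counts, and the number of samples, 2 at day 1, limits the precision. With 1 sample left out in turn, 0 to 4 genes were called at day 1 (0 without day 1 replicate 1, which leaves 164 of 29565 genes called in all), while the counts were 3 to 7 for day 3, 1 to 4 for day 7 and 0 to 2 for each of the later comparisons.

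At day 7, DESeq2 and voom called 5 genes each (with Cxcl2, Cxcl16 and Cx3cl1 added), where they called 10.2% and 26.5% of all genes, both groups alone 4, and day 7 replicates 1 and 3 only 0. From day 1 to day 3 the counts were 4 with DESeq2 (9.04% of all genes), 2 with voom (12.6%) and 0 without a filter. From day 3 to day 7 they were 3 with DESeq2 (6.7%) and with voom (22.5%), 0 with both groups alone, 0 with day 3 replicates 3 and 4 only and 0 with day 7 replicates 1 and 3 only. Subsets of samples were added after the values were seen. Replicate numbers did not pair the samples (18 same-number pairs, r of -0.232 to 0.0962), and with the replicate block 3 genes were called at day 3, 0 from day 1 to day 3 and 0 from day 3 to day 7. The cause of these shifts was not tested. Over the whole table, called genes numbered from 164 (without day 1 replicate 1) to 4308 for day 1, from 946 (without healthy replicate 2) to 7265 for day 3, and from 53 (day 7 replicates 1 and 3 only; 193 without healthy replicate 1) to 7047 for day 7, each highest with voom.

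Directions turned only for 17 results that were not called, and the cause was not tested. With voom the log2 differences were -0.25 for Cxcl10 at day 3, 0.44 for Ackr3 from day 1 to day 3, and from day 3 to day 7 -0.22 for Cxcl13, -0.0724 for Cxcl16 and 0.10 for Cx3cl1. For Cxcl10 at day 3 they were -0.11 without a filter, -0.0188 with both groups alone and -0.0688 with the replicate block. Cxcl9 at day 7 was 0.0416 with library size only, 0.0253 with the CPM filter, 0.36 with day 7 replicates 1 and 3 only and 0.11 without healthy replicate 4 and day 7 replicate 2. Cxcl13 from day 3 to day 7 was -0.0063 with both groups alone. The block gave -0.026 for Cxcl10 at day 7 and -0.0326 for Cxcl14 from day 3 to day 7. With day 3 replicates 3 and 4 only, Cxcl9 was 0.32 at day 3 and -0.34 from day 3 to day 7, Cxcl10 -0.0537 and Ackr3 0.51 from day 3 to day 7. With day 7 replicates 1 and 3 only, Cxcl12 was -0.31 and Cxcl13 -0.28 from day 3 to day 7.

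With 1 sample left out, the differences ranged at day 1 from -0.85 to 0.0069 for Cxcl12 and from -0.39 to 1.61 for Cxcl13, at day 3 from -0.50 to 0.23 for Cxcl9 and from -0.26 to 0.37 for Cxcl10, and at day 7 from -0.25 to 0.31 for Cxcl9 and from -0.0704 to 0.44 for Cxcl10. From day 1 to day 3 they ranged from -1.14 to 0.0663 for Cxcl2, from -0.97 to 0.25 for Cxcl14 and from -0.86 to 0.22 for Ackr3, and from day 3 to day 7 from -0.17 to 0.47 for Cxcl9, from -0.13 to 0.38 for Cxcl10, from -0.31 to 0.71 for Cxcl13, from -0.19 to 0.45 for Cxcl14 and from -0.46 to 0.37 for Cx3cl1.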
